A study of Homo sapiens with 50 samples.

Results

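Mitochondrial ribosomal protein genes encode the proteins of the mitoribosome, the ribosome that works inside mitochondria. Members were the entries of the authors' gene list for DLD-1 cells whose gene is protein coding and carries the symbol MRPL or MRPS followed by digits. These were 32 of 6481 entries, 17 with a large subunit symbol (MRPL) and 15 with a small subunit symbol (MRPS). RefSeq holds 77 such protein-coding genes, so 41.6% of them were listed.

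The study addressed how the histone chaperone SPT6 acts in the release of paused RNA polymerase II (Pol II) and in recruiting the PAF1 complex. It comprised 50 ChIP-seq libraries of DLD-1, a human colorectal adenocarcinoma line, all from cells that constitutively express the plant F-box protein OsTIR1. Of these, 30 came from SPT6-AID OsTIR1 cells, 9 from PAF1-AID OsTIR1, 4 from SPT6-AID/PAF1-AID OsTIR1, 4 from SPT6-AID/NELF-C-AID OsTIR1 and 3 from cells labelled OsTIR1 alone. The auxin-inducible degron (AID) lets OsTIR1 direct the tagged protein to degradation, and cells received vehicle for 2 h or 500 µM auxin for 0, 2 or 6 h. Fixed mouse embryonic fibroblasts were a spike-in in every group, and the labels do not say whether each line is a single clone. The values below come from 2 coordinate lists that accompany the series and name no sample. They give 1 gene interval and 1 pause site of 1 bp per gene and no value for any library. There is therefore no replicate, no depth and no comparison between lines, treatments or times, and every spread quoted is a spread between genes. Of 12 colon epithelium marker genes 7 were in the list, and of 12 fibroblast marker genes 0 were, beside 30.3% of all protein-coding genes. The list holds human genes chosen in a way that no source used here gives, so these counts do not measure the spike-in.

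Mitoribosomes translate the few messages of the mitochondrial genome, which encode core subunits of the respiratory chain and of ATP synthase. All of their proteins are encoded in the nucleus, transcribed by Pol II, made in the cytosol and imported. At most active genes Pol II halts shortly after it starts, and release from this promoter-proximal pause is a step at which transcription is controlled. The distance from the start of the gene to the pause site was the only readout that the lists allow, and it was not used to choose the members.

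The promoters of the members are shown first, because the results on letters near the start turn on them. RefSeq promoter windows (assembly GRCh38.p14, 250 bases before to 50 after a start) held the listed 5' end of 29 members. Each line below gives up to 70 bases before the listed 5' end and up to 30 from it, read on the gene's strand with hg38 positions. The single capital is the first listed base, and longer runs of capitals mark the letters ATGGCGGC, a match to the core of sites bound by the zinc finger factor YY1, CCGGAAG (or CTTCCGG, the same on the other strand), bound by ETS factors such as GABPA, and GCGCANGCG on either strand, bound by NRF1. GABPA and NRF1 are known regulators of nuclear genes for mitochondrial proteins. A match is a description of letters and not a bound site. The first 8 genes are shown because they carry the YY1 letters just after the start, as MRPS18A does too.
MRPS9, plus strand, chr2:105038020-105038118: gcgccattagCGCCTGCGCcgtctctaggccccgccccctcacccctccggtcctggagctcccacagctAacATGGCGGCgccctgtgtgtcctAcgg
MRPL22, plus strand, chr5:154941036-154941122: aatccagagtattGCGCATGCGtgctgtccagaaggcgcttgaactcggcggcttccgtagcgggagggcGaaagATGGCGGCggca
MRPS30, plus strand, chr5:44808885-44808984: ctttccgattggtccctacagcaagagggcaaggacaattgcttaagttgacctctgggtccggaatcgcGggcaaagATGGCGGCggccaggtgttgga
MRPL38, minus strand, chr17:75904855-75904954: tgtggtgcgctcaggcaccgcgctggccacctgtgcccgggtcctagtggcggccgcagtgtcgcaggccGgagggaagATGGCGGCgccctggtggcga
MRPL58, plus strand, chr17:75012606-75012705: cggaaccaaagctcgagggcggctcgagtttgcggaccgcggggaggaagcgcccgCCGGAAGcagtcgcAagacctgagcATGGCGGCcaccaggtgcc
MRPS35, plus strand, chr12:27710762-27710861: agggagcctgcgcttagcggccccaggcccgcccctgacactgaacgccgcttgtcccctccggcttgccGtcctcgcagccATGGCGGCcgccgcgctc
MRPL9, minus strand, chr1:151763467-151763566: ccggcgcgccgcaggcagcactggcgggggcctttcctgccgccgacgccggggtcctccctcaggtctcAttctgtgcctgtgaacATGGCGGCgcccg
MRPS15, minus strand, chr1:36464350-36464449: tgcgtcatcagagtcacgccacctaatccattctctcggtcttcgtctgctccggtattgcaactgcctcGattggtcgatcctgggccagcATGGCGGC
In MRPS9 the last single capital, 4 bases from the end of the line, is the pause site, 25 bp from the first base. The next genes are shown for ETS letters close to the start, and in MRPL52 the first listed base lies inside these letters.
MRPL52, plus strand, chr14:22829817-22829916: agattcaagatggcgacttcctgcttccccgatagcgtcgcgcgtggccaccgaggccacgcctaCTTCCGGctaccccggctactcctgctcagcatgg
MRPL33, plus strand, chr2:27771653-27771752: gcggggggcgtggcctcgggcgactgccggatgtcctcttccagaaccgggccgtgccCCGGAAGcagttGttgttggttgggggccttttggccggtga
MRPS23, minus strand, chr17:57850015-57850114: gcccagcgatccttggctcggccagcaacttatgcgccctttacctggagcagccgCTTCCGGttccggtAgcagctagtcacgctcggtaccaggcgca
MRPS16, minus strand, chr10:73252596-73252695: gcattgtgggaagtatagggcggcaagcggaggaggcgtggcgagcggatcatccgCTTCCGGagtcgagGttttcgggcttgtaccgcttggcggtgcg
MRPS21, plus strand, chr1:150293791-150293890: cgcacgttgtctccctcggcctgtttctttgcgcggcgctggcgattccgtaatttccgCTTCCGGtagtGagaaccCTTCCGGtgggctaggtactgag
MRPL3, minus strand, chr3:131502940-131503039: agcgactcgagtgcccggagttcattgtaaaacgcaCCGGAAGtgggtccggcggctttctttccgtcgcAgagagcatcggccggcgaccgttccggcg
The last group holds the members with the smallest and the largest pause distance, MRPL1 and MRPS10, and MRPL20, with the distance next above that of MRPL1. In all of these the RefSeq window ends soon after the listed 5' end.
MRPL1, plus strand, chr4:77862806-77862879: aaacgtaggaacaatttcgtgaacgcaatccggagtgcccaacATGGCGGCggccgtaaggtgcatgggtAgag
MRPL20, minus strand, chr1:1407244-1407317: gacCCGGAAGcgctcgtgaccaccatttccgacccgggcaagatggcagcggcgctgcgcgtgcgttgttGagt
MRPS10, minus strand, chr6:42217812-42217895: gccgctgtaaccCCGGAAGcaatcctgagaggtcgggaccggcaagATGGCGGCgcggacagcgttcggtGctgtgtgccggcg

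The YY1 letters were in 11 of 29 member windows (37.9%). They were in 3.91% of all 22199 windows of protein-coding genes and in 7.59% of the windows of 4569 other listed genes. A listed gene's window was taken where its start lay within 300 bp of the listed 5' end. That end could be read in all 29 member windows but in only 3958 of the 4569. All 11 matches read on the gene's strand, where the share was 2.59% of all windows, and 9 of them began between 3 and 22 bases after the listed 5' end. The remaining YY1 matches lay upstream, at -27 in MRPL1 and -24 in MRPS10, both genes whose listed 5' end lies downstream of the RefSeq start. In the 100 bases before the RefSeq start 0 of 29 members carried these letters. The letters begin with ATG, and whether they overlap a start codon was not examined, since exons and coding parts were not assigned.

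ETS letters were in 13 of 29 member windows (44.8%), beside 12.8% of all windows and 19.9% of those of other listed genes. Of their 16 matches 12 lay within 100 bases upstream of the listed 5' end, and MRPS21 and MRPS33 each had 1 just inside the gene, 7 and 11 bases in. On the gene's strand alone 7 members had them (24.1%), beside 7.25% of all windows, 11.7% of other listed genes and 24% of cytosolic ribosomal protein genes. NRF1 letters were in 6 members (20.7%), namely MRPL20, MRPL22, MRPL44, MRPL45, MRPS9 and MRPS33, beside 9.64% of all windows and 17.8% of other listed genes, so that this share was close to that of listed genes in general. In the last 100 bases before the RefSeq start it was 6.90%, beside 5.54% of all windows and 10.6% of other listed genes. At least 1 of the ETS, NRF1 and YY1 motifs was present in 22 of 29 members (75.9%), in 5101 of all 22199 windows and in 38.5% of other listed genes.

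Each of the remaining motifs is given beside all windows and then other listed genes. SP1 letters (GGGCGG) were in 62.1% of member windows, beside 56.3% of all windows and 79.4% of other listed genes. The CCAAT box was in 27.6% of member windows, beside 34.7% and 36.7%. In the last 100 bases before the start the CCAAT share was 6.90%, beside 19.6% and 22.8%, and on the gene's strand it was 6.90%, beside 19.2% and 21.4%. The E-box (CACGTG) was in 6.90% of member windows, beside 8.34% and 10.6%. The cAMP response element (TGACGTCA) was found in MRPL4 only, which is 3.45% beside 2.26% and 4.03%. TATA box letters (TATAAA) were found in MRPS15 only, which is 3.45% beside 9.47% and 4.03%, and ZNF143 letters (ACTACAA) were in MRPS18A and MRPS31, which is 6.90% beside 2.84% and 3.92%. All motifs were searched on both strands of the window, and none of these sets of letters contains another. The median G and C content of the windows was 59.3% in members and 67.7% in other listed genes, and its part in these shares was not tested.

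For 39 MRP genes that the authors did not list, 1 window per gene was taken. Of these windows 38.5% held ETS letters, 20.5% YY1 letters and 17.9% NRF1 letters, and 66.7% held at least 1 of them. Some of these genes, such as MRPL34, have several windows, and none could be chosen by a listed 5' end as in members. The shares of all windows count every window of a gene. The YY1 share was thus lower than the 37.9% of the listed members, and on the gene's strand it was 15.4%. Cytosolic ribosomal protein genes, whose products build the ribosome of the cytoplasm, had ETS letters in 28% of 25 windows and YY1 letters in 12%. Oxidative phosphorylation genes, which encode nuclear subunits of the respiratory chain and ATP synthase, had NRF1 letters in 42.3% of 26 windows and YY1 letters in 15.4%. At least 1 of the ETS, NRF1 and YY1 motifs was in 61.5% of these windows and in 44% of those of cytosolic ribosomal protein genes. None of these differences was tested, because a window is a property of the reference and not a replicate.

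**Figure D1:**
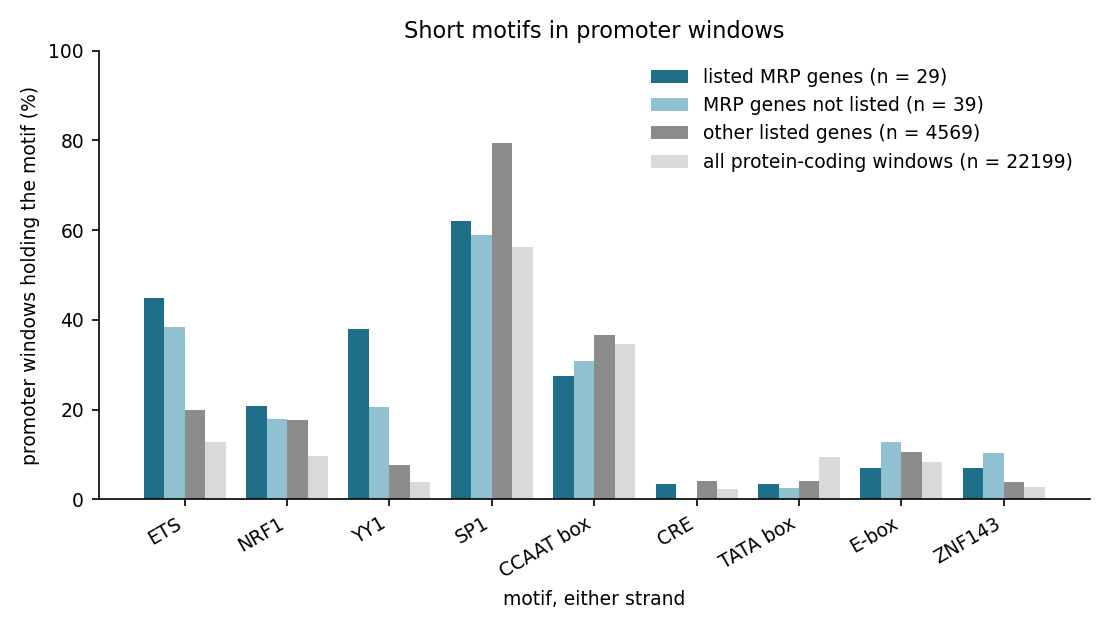
Share of promoter windows (y axis, percent) that hold each motif on either strand (x axis), for listed MRP genes, MRP genes not listed, other listed genes and all windows of protein-coding genes; n is the number of windows. ETS and YY1 bars are highest in listed MRP genes, at 44.8% and 37.9%, and the SP1 bar is highest in other listed genes.

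**Figure D2:**
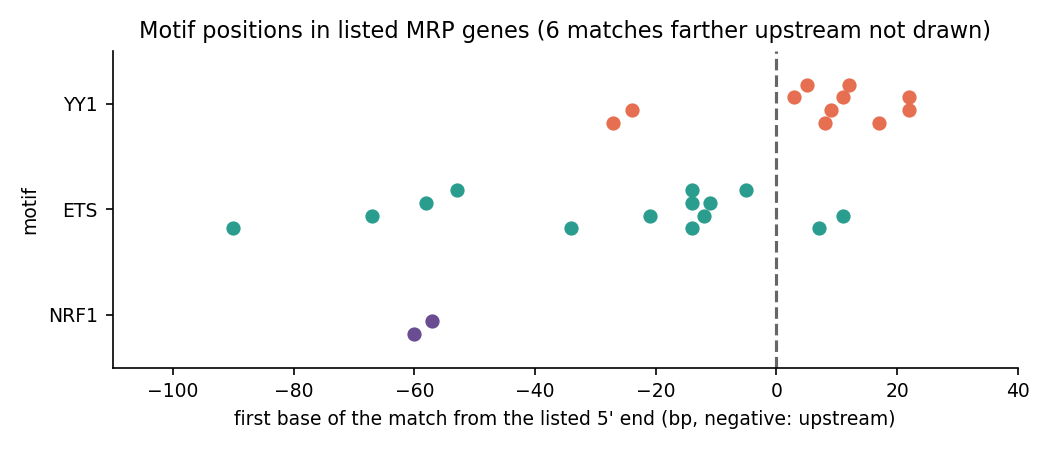
Position of each ETS, NRF1 and YY1 match in listed MRP genes, as bp from the listed 5' end (dashed line), with 1 point per match and heights within a row spread only to separate points. YY1 matches gather at 3 to 22 bp inside the gene, while ETS matches lie mostly upstream; 6 matches farther upstream than 110 bp are not drawn.

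The listed 5' end fell on a purine preceded by a pyrimidine, the usual initiator step, in 27 of 29 members (93.1%) and in 86.7% of 3958 other listed genes. The exceptions were MRPS16 and MRPS18A, in both of which a G comes before the first base. The first base was G in 17 members (58.6%) and A in 12 (41.4%). Among other listed genes it was G in 27.5% and A in 68.4%. The large subunit began with G in 9 of 15 genes and the small subunit in 8 of 14. Cytosolic ribosomal protein genes are known to start at a C inside a pyrimidine tract, and 22 of 23 of them began with C (95.7%), whereas 0 of 29 mitochondrial ones did. Oxidative phosphorylation genes began with A in 52% and G in 40% of 25.

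Pause distance was counted in bp from the listed 5' end to the pause site along the strand. The 32 members had a median of 54 bp, with quartiles of 40.8 and 87.2 bp, a range from 9 to 218 bp and a mean of 66.1 ± 42.2 bp (SD between genes). The other 6449 entries had a median of 52 bp, quartiles of 38 and 83 bp and a mean of 71.1 ± 56.7 bp. The difference between the medians was far inside the spread between genes of either set. Between 40 and 69 bp lay 15 members (46.9%), beside 40.5% of all entries. Under 20 bp lay 2 members (6.25%), beside 7.08%. Over 100 bp lay 7 members (21.9%), beside 18.7%, and 1 member (3.12%) lay at 200 bp or more, beside 5.32%. Every one of these shares was near its background. From 30 to 49 bp lay 6 members (18.8%), beside 32.8% of all entries, and from 50 to 69 bp lay 11 (34.4%), beside 21.4%.

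**Figure D3:**
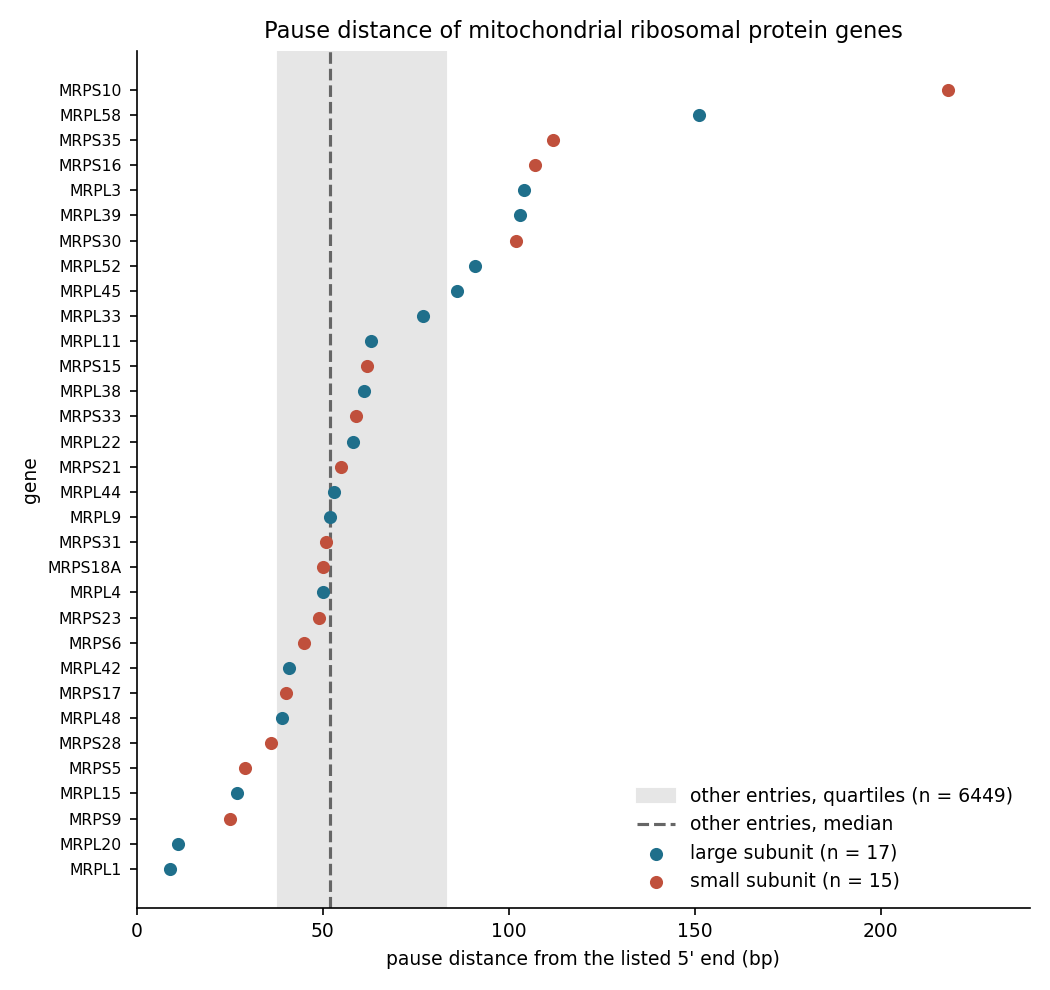
Pause distance in bp (x axis) of each listed MRP gene (y axis, sorted by distance), coloured by subunit symbol; the grey band spans the quartiles of all other entries, 38 to 83 bp, and the dashed line is their median, 52 bp. Members of both subunits are interleaved over the whole range, and MRPS10 stands apart at 218 bp.

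Large subunit genes had a median of 58 bp and small subunit genes a median of 51 bp, a difference of 7 bp. Their ranges, 9 to 151 bp and 25 to 218 bp, overlapped over most of their length. By the mean the order was the other way, 63.3 ± 36.2 bp in the large and 69.3 ± 49.3 bp in the small subunit. The difference of medians was 22 bp among members whose listed 5' end lay within 10 bp of the RefSeq start. MRPS18A and MRPS30 carry small subunit symbols, but their proteins are part of the large subunit. With both counted there, the medians were again 58 bp over 19 genes and 51 bp over 13. Unless stated, large and small subunit follow the symbols.

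Among the large subunit genes, MRPL1 had the smallest distance, 9 bp, with its gene at chr4:77862876-77952785 on the plus strand and its pause site at position 77862885. Its protein builds the mobile L1 stalk beside the exit for spent tRNA. MRPL20 followed at 11 bp (chr1:1401909-1407247, minus strand, site at 1407236) and MRPL15 at 27 bp (chr8:54135261-54148514, plus strand, site at 54135288). Both proteins are homologues of bacterial large subunit proteins. The shortest distances of MRPL1 and MRPL20 were also those of genes whose listed 5' end lay 46 bp inside the RefSeq gene, so that their sites lay 55 and 57 bp from the RefSeq start.

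The centre of the large subunit was crowded. MRPL48 stood at 39 bp, MRPL42 at 41 bp, MRPL4 at 50 bp, MRPL9 at 52 bp and MRPL44 at 53 bp, of which MRPL44 has a fold related to ribonuclease III. MRPL22, which helps to line the exit tunnel for the new protein, was the middle gene at 58 bp (chr5:154941106-154969411, plus strand, site at 154941164). MRPL38 followed at 61 bp and MRPL11, at the base of the stalk that binds translation factors, at 63 bp. These 8 genes lay between 39 and 63 bp, and without a second measurement of any site their order cannot be checked.

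Higher values came from MRPL33 at 77 bp, MRPL45 at 86 bp and MRPL52 at 91 bp, of which MRPL45 lies near the tunnel exit that faces the inner membrane. MRPL39 stood at 103 bp (chr21:25585656-25607491, minus strand, site at 25607388) and MRPL3 at 104 bp (chr3:131462212-131502969, minus strand, site at 131502865). MRPL58, a peptidyl-tRNA hydrolase also known as ICT1 that frees stalled chains, had the largest distance of the large subunit, 151 bp (chr17:75012676-75021261, plus strand, site at 75012827). Of all entries 90.1% were at or below that value.

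Among the small subunit genes, MRPS9, a homologue of a bacterial protein of the small subunit head, had the smallest distance, 25 bp (chr2:105038090-105099960, plus strand, site at 105038115). MRPS5 followed at 29 bp (chr2:95085369-95121806, minus strand, site at 95121777) and MRPS28 at 36 bp (chr8:79918717-80029921, minus strand, site at 80029885). No small subunit gene was under 20 bp, whereas MRPL1 and MRPL20 of the large subunit were. MRPS17 stood at 40 bp, MRPS6 at 45 bp, MRPS23 at 49 bp and MRPS18A at 50 bp. The middle gene was MRPS31 at 51 bp (chr13:40729128-40771169, minus strand, site at 40771118). MRPS21 stood at 55 bp, MRPS33 at 59 bp and MRPS15 at 62 bp. The small subunit had no gene between MRPS15 and MRPS30, at 102 bp, while MRPL11, MRPL33, MRPL45 and MRPL52 of the large subunit lay in that gap.

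The 4 genes with a small subunit symbol over 100 bp included the largest value of all members. They began at 102 bp with MRPS30, whose protein is part of the large subunit. MRPS16 stood at 107 bp (chr10:73248849-73252625, minus strand, site at 73252518) and MRPS35 at 112 bp (chr12:27710832-27756295, plus strand, site at 27710944). MRPS10, a homologue of a bacterial protein of the small subunit head, had the largest distance of all members, 218 bp (chr6:42206807-42217825, minus strand, site at 42217607). Of all entries 95.8% were at or below it, and the next member below was MRPL58 at 151 bp. Leaving out MRPS10 brought the median of the members to 53 bp.

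Letters at the pause site itself could be read in 8 members, since the windows end 50 bases after a RefSeq start. The site fell on A in 3, on C in 3 and on G in 2 of them. In 1447 other listed genes that could be read it fell on G in 49.7%. A site could be read only where the position of the listed 5' end and the distance together kept it inside a window. MRPL1 and MRPL20, with the smallest distances, could not be read, and the 8 do not stand for the rest. In the lines below the capital is the pause site, with up to 24 bases before it and 5 after it, for the members read at 41, 45 and 53 bp.
MRPL42, plus strand, chr12:93467534-93467563: tcgtggtgagaagccgtcaaggtaAccgct
MRPS6, plus strand, chr21:34073599-34073627: tccggcgcagcagtttctaggtccCcact
MRPL44, plus strand, chr2:223957484-223957512: gctggtaagattgctgcagcagggAcatc
The base before the site was G in 4 of the 8 members, among them MRPL44, and in 41.3% of the 1447 other listed genes.

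The listed 5' end was compared with the outermost start of each RefSeq gene. It fell on the same base in 7 members (21.9%) and in 25.7% of the named other entries. These were MRPS6, MRPS21, MRPS23, MRPS35, MRPL9, MRPL38 and MRPL52. Within 10 bp lay 14 members (43.8%), beside 39.8% of 6041 named other entries, and within 50 bp lay 26 (81.2%), beside 63.9%. Over 10 bp downstream lay 17 members (53.1%), beside 53.4%, and MRPS33 alone lay over 10 bp upstream, by 11 bp. The outermost start was far from the listed one in MRPL44 (6601 bp), MRPL48 (391 bp), MRPL39 (368 bp), MRPS28 (338 bp), MRPL4 (263 bp) and MRPS5 (197 bp). RefSeq annotates another start within 10 bp of the listed 5' end in MRPL44, MRPL39, MRPL4 and MRPS5.

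The 14 members within 10 bp had a median distance of 61.5 bp and ranged from 41 to 151 bp, while the 17 over 10 bp downstream had a median of 50 bp and ranged from 9 to 218 bp. In the other named entries the medians of the same classes were both 51 bp. All 5 members under 30 bp, MRPL1, MRPL20, MRPS9, MRPL15 and MRPS5, were in the downstream class, and so was MRPS10 with the largest distance. The distance and the offset share the listed 5' end, so they are not independent of each other. Measured from the RefSeq start instead, for the 28 members whose listed 5' end lay within 300 bp of it, the median was 73.5 bp, beside 69 bp in 4682 other entries.

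**Figure D4:**
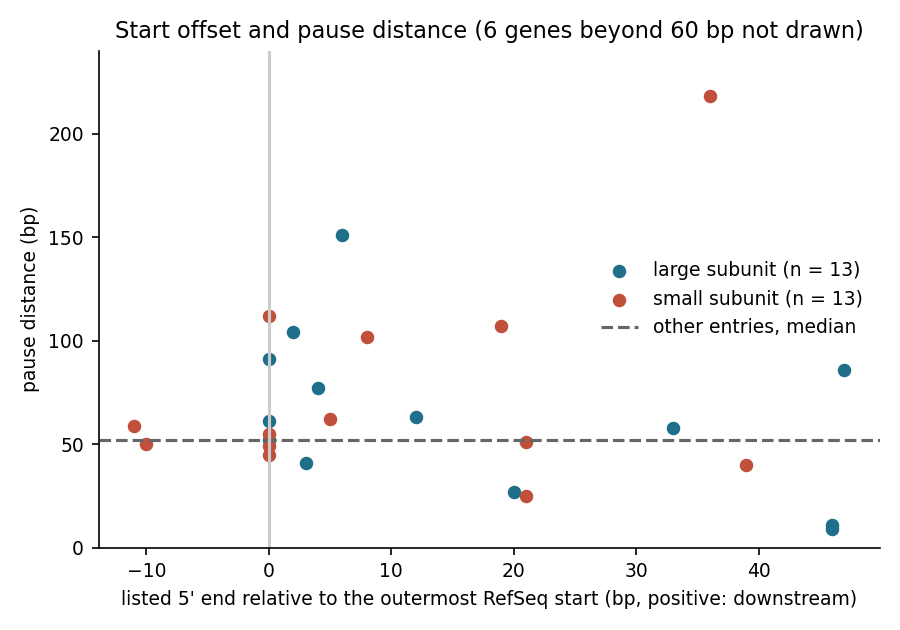
Pause distance in bp (y axis) against the offset in bp of the listed 5' end from the outermost RefSeq start (x axis, positive is downstream), 1 point per listed MRP gene, with the median of all other entries as a dashed line; 6 genes with an offset beyond 60 bp are not drawn. Genes within 10 bp of the RefSeq start lie between 41 and 151 bp, and the points at 9 and 11 bp have an offset of 46 bp.

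Listing of MRP genes differed with their neighbours. The shortest entry of the authors' list was 3005 bp long. That limit is taken from the list itself and cannot show a dependence on length. Of the 77 MRP genes 67 reach that length. Of these 32 were listed (47.8%), beside 33.6% of all protein-coding genes of that length and 30.3% of protein-coding genes of any length. By subunit, 17 of 43 long enough large subunit genes (39.5%) and 15 of 24 small subunit genes (62.5%) were listed. Where no other protein-coding gene lay within 1000 bp, 28 of 30 MRP genes were listed (93.3%), beside 43.3% of 10996 other genes. Where one lay that close, 4 of 37 were listed (10.8%), beside 18.1% of 7031 other genes. All 4 were among the 16 whose neighbour overlaps them (25%), beside 18.7% of 4276 other genes with an overlap. The low share was thus that of MRP genes with a gap to their neighbour. Within the genes without a close neighbour, 16 of 18 large and 12 of 12 small subunit genes were listed, and 25 of 43 large but 12 of 24 small subunit genes had such a neighbour. The 408 entries that got no name enter none of these shares, so the shares of other genes may be too low. No unlisted MRP gene overlapped any of the 408. No source used here says how the authors chose the genes.

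**Figure D5:**
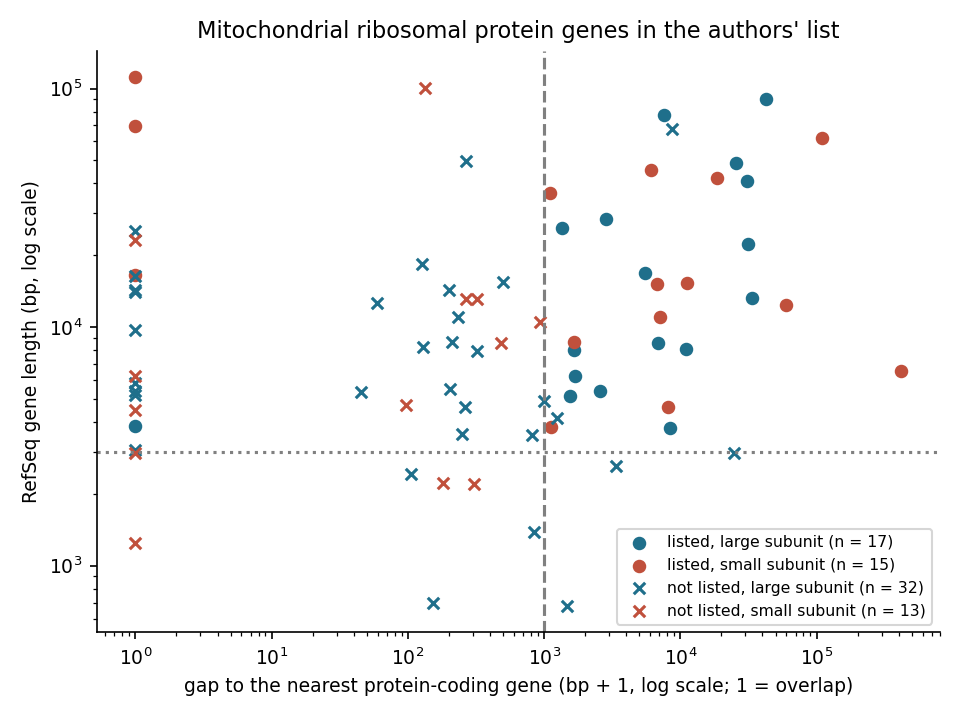
RefSeq gene length in bp (y axis, log scale) against the gap to the nearest protein-coding gene in bp plus 1 (x axis, log scale, 1 means overlap) for the 77 MRP genes, by listing (circle or cross) and subunit symbol (colour); the dotted line is the shortest entry, 3005 bp, and the dashed line the 1000 bp limit. Circles fill the upper right, where 28 of 30 genes are listed, and 4 circles lie on the left edge.

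The 4 listed members with a close neighbour all overlapped it. MRPL9 (chr1:151759647-151763496, minus strand, site at 151763444) was the only one with a neighbour head to head at its start, OAZ3, a testis antizyme gene, and its distance was 52 bp. Among other entries 318 (4.93%) had a head-to-head gene within 1000 bp, beside 3.12% of members. The 318 had a median of 54 bp, and other entries without one had a median of 52 bp. MRPS6 shares its locus with SLC5A3, a myo-inositol transporter gene, MRPS18A with RSPH9, and MRPS28 with the read-through gene TPD52-MRPS28. Their distances, 45, 50 and 36 bp, with the 52 bp of MRPL9, gave a median of 47.5 bp, beside 58.5 bp in the 28 members without a close neighbour. Among the other named entries the same medians were 53 and 51 bp, in the opposite order. The listed members just outside the limit were MRPS5, 1101 bp from ZNF514, and MRPS16, 1117 bp from CFAP70.

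The 45 MRP genes outside the list were 32 large and 13 small subunit genes, and no interval of the authors' list, whose 5' ends often lie inside the RefSeq gene, overlapped any of them. Only 2 were long enough and without a close neighbour. These were MRPL12, 4151 bp long and 1245 bp from HGS, and MRPL23, 67613 bp long and 8629 bp from TNNT3. A further 10 were shorter than the shortest entry. They were MRPL17 (2956 bp), MRPS24 (2960 bp), MRPL55 (2615 bp), MRPL57 (2427 bp), MRPS12 (2225 bp), MRPS26 (2199 bp), MRPL51 (1377 bp), MRPS34 (1240 bp), MRPL53 (699 bp) and MRPL41 (677 bp). Of these, MRPL17, MRPL41 and MRPL55 had no protein-coding gene within 1000 bp, the nearest being DCHS1 at 24575 bp, PNPLA7 at 1476 bp and C1orf35 at 3359 bp. The nearest to the others were the read-through gene URGCP-MRPS24 and EME2, which overlap MRPS24 and MRPS34, SKA3 at 105 bp from MRPL57, CCDC142 at 151 bp from MRPL53, SARS2 at 180 bp from MRPS12, GNRH2 at 304 bp from MRPS26 and NCAPD2 at 839 bp from MRPL51. SARS2 encodes the mitochondrial seryl-tRNA synthetase.

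The other 33 were long enough and had a protein-coding gene within 1000 bp, and 12 of them overlapped it. Overlaps were those of MRPL14 (14002 bp) with TMEM63B, MRPL2 (5835 bp) with KLC4, MRPL24 (5414 bp) with HDGF, MRPL34 (14271 bp) with ABHD8, MRPL36 (3050 bp) with NDUFS6 and MRPL37 (25323 bp) with SSBP3. Further overlaps were those of MRPL43 (9678 bp) with SEMA4G, MRPL47 (16362 bp) with ACTL6A, MRPL49 (5189 bp) with SYVN1, MRPS18C (6241 bp) with ABRAXAS1, MRPS25 (23065 bp) with NR2C2 and MRPS7 (4498 bp) with GGA3. MRPL36 was the only one of the 33 whose nearest neighbour, as chosen here, was itself listed. No such count was taken over other genes, so it cannot be read as particular to MRP genes. The neighbour of MRPL36, NDUFS6, a subunit of respiratory complex I, had a pause distance of 6 bp. The overlap is between the RefSeq genes, and the listed interval of NDUFS6 begins outside MRPL36.

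The remaining 21 had a gap to their neighbour. MRPL46 (7911 bp) and MRPS11 (13069 bp) are each other's neighbour, head to head and 319 bp apart, so that a large and a small subunit gene are both missing at 1 locus. The closest pairs were MRPL27 (5318 bp) with EME1 at 44 bp, MRPL21 (12555 bp) with IGHMBP2 at 58 bp and MRPS2 (4709 bp) with PIERCE1 at 95 bp. Between 100 and 200 bp lay MRPL30 (18378 bp) from MITD1 at 125 bp, MRPL10 (8270 bp) from LRRC46 at 128 bp, MRPS27 (100838 bp) from PTCD2 at 132 bp and MRPL35 (14362 bp) from REEP1 at 198 bp. Between 200 and 300 bp lay MRPL32 (5482 bp) from PSMA2 at 201 bp, MRPL18 (8618 bp) from TCP1 at 209 bp, MRPL50 (10986 bp) from ZNF189 at 232 bp, MRPL28 (3570 bp) from PGAP6 at 249 bp, MRPL16 (4639 bp) from STX3 at 261 bp, MRPS22 (13147 bp) from COPB2 at 265 bp and MRPL13 (49714 bp) from MTBP at 268 bp. Farther apart were MRPS18B (8553 bp) from ATAT1 at 481 bp, MRPL19 (15424 bp) from GCFC2 at 498 bp, MRPL40 (3531 bp) from HIRA at 811 bp, MRPS14 (10468 bp) from CACYBP at 930 bp and MRPL54 (4884 bp) from APBA3 at 989 bp. The promoter table gave a strand for 29 of the 35 long enough unlisted genes, and 19 of these had a head-to-head gene within 1000 bp of the RefSeq start. The 19 may be too few, since the strand of the upstream neighbour was unknown for MRPL43 and MRPL47. No such share was taken over all protein-coding genes, so it cannot be read as particular to these genes. Among the head-to-head neighbours are PSMA2, a proteasome subunit gene, and TCP1, a chaperonin subunit gene.

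The members had a median length of 14186 bp in the list, beside 35567 bp for other entries. Large subunit genes had a median of 10260 bp and small subunit genes of 15264 bp, from 3762 bp for MRPL11 to 111205 bp for MRPS28. They were spread over 16 chromosomes. The plus strand carried 17 of them, with a median pause distance of 53 bp, and the minus strand 15, with a median of 59 bp.

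Related gene lists were set beside the members. The 35 listed cytosolic ribosomal protein genes had a median pause distance of 53 bp (quartiles 38 and 67 bp) and the 34 listed oxidative phosphorylation genes one of 44 bp (quartiles 37.2 and 83.5 bp). The members' median of 54 bp lay within the quartiles of both. Of genes long enough and without a close neighbour, 29 of 39 cytosolic ribosomal protein genes (74.4%) and 26 of 32 oxidative phosphorylation genes (81.2%) were listed, beside the 93.3% of MRP genes. Over all long enough genes the shares were 35 of 68 (51.5%) and 34 of 69 (49.3%), beside 47.8% of MRP genes. Over genes of any length they were 40.7% and 44.2%, beside 41.6%. A high listed share was thus not particular to MRP genes.

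Genes of assembly, translation factors, tRNA synthetases and mitochondrial transcription were listed in shares from 32.1% to 45%, beside 41.6% of MRP genes and 30.3% of all protein-coding genes. Of 28 genes counted as assembly genes 9 were listed (32.1%), with a median of 62 bp, from 45 bp for GRSF1, an RNA-binding protein, to 102 bp for MTERF2. Whether MTERF2 acts in assembly was not examined. The 9 included ERAL1, a GTPase chaperone of the small subunit rRNA, at 69 bp and DHX30, a helicase, at 65 bp. Of 13 translation factor genes 5 were listed (38.5%), with a median of 70 bp, and TUFM, the mitochondrial elongation factor Tu, stood at 224 bp, near the 218 bp of MRPS10. Of 19 mitochondrial aminoacyl-tRNA synthetase genes 7 were listed (36.8%; median 49 bp, from 6 bp for NARS2 to 255 bp for AARS2). Of 20 genes of mitochondrial transcription and RNA handling 9 were listed (45%; median 50 bp), among them TFAM, which packages mitochondrial DNA, at 44 bp. Among genes long enough and without a close neighbour, 3 of 3 translation factor, 7 of 7 synthetase, 9 of 9 transcription and RNA and 4 of 7 assembly genes were listed. Of 6 genes for mitoribosome proteins and partners with other symbols only OXA1L, the inner membrane insertase that meets the tunnel exit, was listed (16.7%), at 42 bp. All these medians lay within the quartiles of the members, 40.8 to 87.2 bp.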

How the data were processed

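Both lists were deposited by the authors as hg38 coordinates, 6481 rows each, with no score. The unit was taken to be bp. The submitters' processing notes name deepTools 3.1.1, Bowtie2 2.2.6 and cutadapt 1.14, without saying what each did. No source used here says how genes and pause sites were called. Positions were converted to 1-based ones, and lists were joined by Ensembl identifier.

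Names came by position from RefSeq (GRCh38.p14): exactly 1 gene with its 3' end within 50 bp and covering 50% of the entry, or else 1 gene that overlaps the entry by 80% both ways, while every other gene stays at 50% or less. The first rule named 5822 entries, the second added 251, and no gene was named 2 times. The second step was added after seeing the data, because a read-through gene hid MRPS28.

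Members and lists were chosen with earlier results of these data known. Every listed member was named; coordinates were given for the 3 smallest, the middle and the 3 largest distances of each subunit and for head-to-head neighbours, and every unlisted MRP gene with its length and neighbour. A neighbour was the nearest protein-coding gene, 1 where several overlap. No test was made, since the files hold no replicate. Naming and distances were checked on simulated entries. Python 3.11.15, pandas 2.3.3, NumPy 2.4.6, SciPy 1.17.1 and matplotlib 3.10.9 were used.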

Additional observations from a re-analysis of the deposited data

How the results depend on the processing

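The order of the subunits depends on the summary: by medians large subunit genes lay 7 bp above small subunit genes, and by means the difference was -6.04 bp. The cause was not tested. Under 6 other settings the difference of medians stayed positive, from 5 to 22 bp. The share of members with the listed 5' end near the RefSeq start was 43.8% within 10 bp, 81.2% within 50 bp and 60% within 10 bp of any annotated start, the last over the 30 members with a promoter window instead of all 32. ETS letters were in 44.8% of members on either strand and in 24.1% on the gene's strand alone. The typical pause distance, 54 bp, ranged from 53 to 73.5 bp over 7 alternatives, the mean among them. The listed share without minus with a close neighbour, 82.5 percentage points, ranged from 63.8 to 82.5. Names by the 3' end alone, any annotated start, read-through genes left out, MRPS18A and MRPS30 moved, and the lists' reciprocal names were chosen after seeing the data. No paired analysis was possible because the lists hold no value per library. Depth is unknown, and 1 site per gene gives no error of any distance.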
